A study of Rattus norvegicus with 8 samples.

Results

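Collagen genes encode the alpha chains that wind around one another into collagen, the main structural protein of the extracellular matrix. They were taken here as every gene whose symbol starts with Col, a number and the letter a, and 25 of the 14506 genes measured met that rule. The RefSeq annotation of the rat assembly GRCr8 lists 44 such genes. For 19 of them the array annotation used here named no probe set of that gene alone, and these were not analysed here. Among the 19 are Col4a2, Col6a1, Col6a2, Col6a3, Col15a1 and Col18a1. The 25 fall into 10 fibrillar chains, 5 FACIT chains (collagens that sit on the surface of fibrils), 3 chains of the basement membrane network, 3 transmembrane chains, 2 short chains, 1 beaded filament chain and 1 chain of anchoring fibrils.

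Gene expression was measured on arrays in fetal pancreatic islets of Sprague-Dawley rats. In the IUGR group, 4 timed pregnant dams had surgery that restricts fetal growth in the uterus (intrauterine growth restriction) on embryonic day 18. In the sham group, 4 dams had a sham operation on the same day, so both groups share surgery as such. Islets were taken at embryonic day 19 and pooled over the litter, with 1 array per litter, so the litter is the replicate and fetuses within it cannot be told apart. The labels name no sorting of cells after islet isolation and do not describe the operation further. Litters are numbered 1 to 4 in each group, as in the labels.

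As background, fibrillar collagens form the fibres of connective tissue and are made mainly by mesenchymal cells such as fibroblasts. Type IV collagens form the sheet-like network of basement membranes, which around islet capillaries is known, from mouse, to be laid down by endothelial cells and touched by endocrine cells. Types II, IX, X and XI are best known from cartilage, where type IX coats thin fibrils of types II and XI.

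Values are log2 expression, and each difference is the IUGR mean minus the sham mean, with its standard error from the limma fit and a p adjusted over all 14506 genes (Benjamini-Hochberg). A gene counted as changed if that adjusted p was under 0.05. Signal from an array is not comparable between probe sets, so levels are compared between litters for the same gene or list. Signal is used across genes only to group them by brightness and set a difference beside those of genes of like signal.

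Several litters stood apart before any comparison. The interquartile range over genes was 3.54 to 3.62 in the IUGR litters, against 3.63, 3.20, 3.23 and 3.06 in sham litters 1 to 4. The 13 measured markers of islet endocrine cells averaged 11.42, 11.12, 10.98 and 11.11 in IUGR litters 1 to 4, against 10.65, 10.58, 10.64 and 12.03 in sham litters 1 to 4. Sham litter 4 was thus the highest of all in endocrine markers, and IUGR litter 4 was the lowest of all in markers of mesenchyme and of endothelium. Sham litter 3 alone carried a strong cartilage signal, which is described with the cartilage collagens. Markers of other cell types also differed. The 12 measured acinar markers averaged 10.85 to 11.80 in IUGR litters and 9.15 to 10.69 in sham litters, with 12 of 12 above the sham mean (median difference 1.17). The 14 genes of liver plasma proteins averaged 11.63 to 12.93 in IUGR litters and 9.42 to 11.76 in sham litters, with 14 of 14 above (median difference 1.82). The 9 duct markers averaged 10.88 to 11.29 in IUGR litters and 9.69 to 10.32 in sham litters, with 9 of 9 above (median difference 0.88), and 1 of them, Krt8, rose past the adjusted threshold. At an unadjusted p under 0.05 (limma), 9 acinar, 12 liver and 8 duct genes were higher, where 15.4% of all genes were. Of all genes, 44.9% lay below the sham mean. Of mesothelial markers 1 of 2 and of Schwann cell markers 2 of 4 lay above the sham mean. The part of these cell types in the collagen differences was not tested.

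Collagen genes were lower in IUGR islets almost throughout, but by amounts that the spread between litters did not separate gene by gene. The difference was below 0 for 24 of the 25 genes, where 44.9% of all genes tested were below 0. Only Col6a4, a chain of beaded filaments, was higher. The median difference of the 25 was -0.29 on the log2 scale, against 0.04 over all genes. No collagen gene passed the adjusted threshold, which 0.248% of all genes did, and the adjusted p-values of the 25 ran from 0.142 to 0.810. At an unadjusted p under 0.05, 3 collagen genes were lower (Col1a1, Col3a1 and Col4a3), where 10.7% of all genes were, and 0 were higher, where 15.4% of all genes were. In 3 genes (Col1a1, Col3a1 and Col11a1) every IUGR litter lay below every sham litter, which held for 5.45% of all genes, and in 0 did every IUGR litter lie above every sham litter, which held for 10% of all genes. Islets were measured in bulk, so fewer cells of a type and less RNA per cell cannot be told apart in any of these values.

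**Figure D1:**
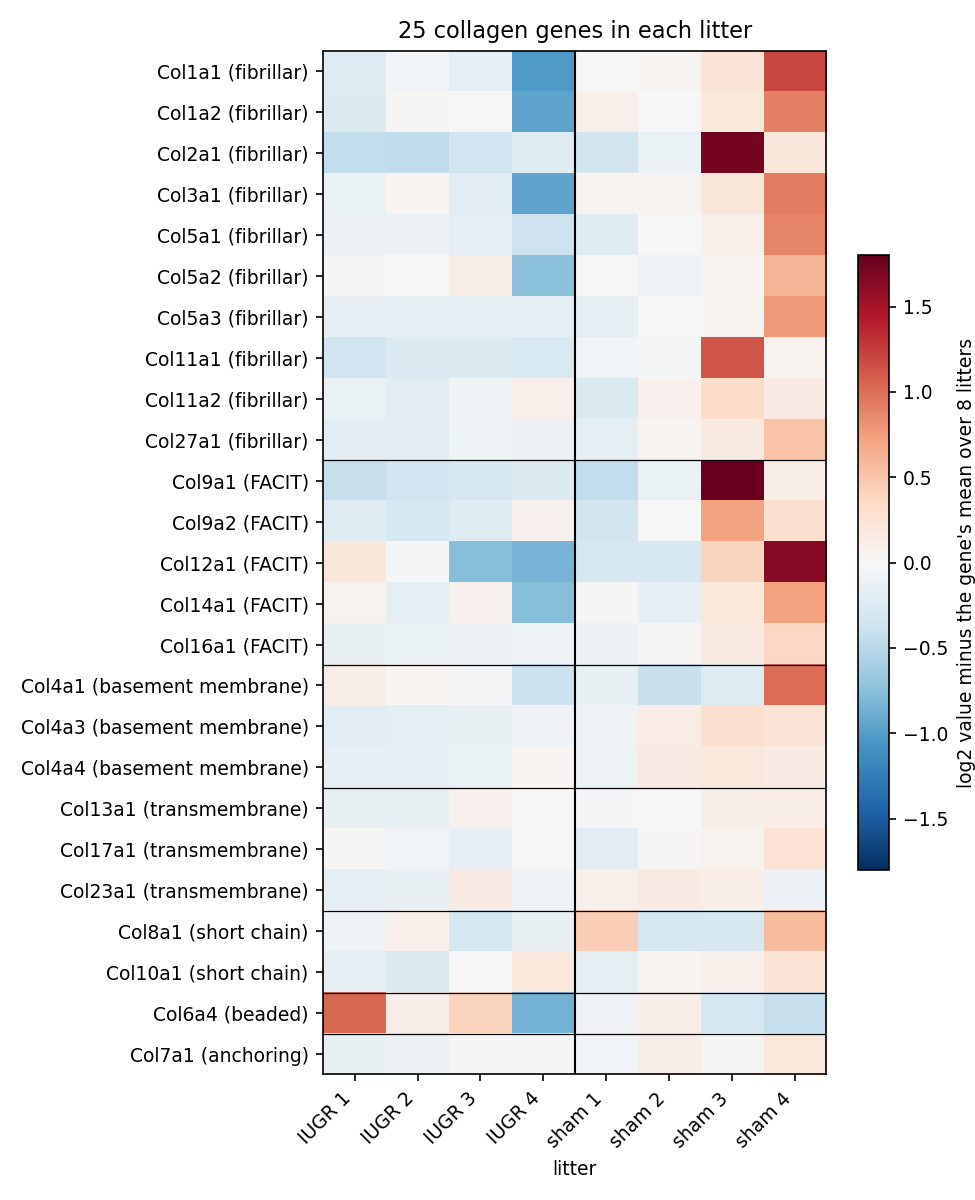
Each row is a collagen gene and each column a litter, IUGR litters left of sham litters, and the colour gives the log2 value minus that gene's mean over the 8 litters. Sham litter 4 is the highest litter for 16 of the 25 genes and sham litter 3 for 7, while IUGR litter 4 is the lowest for 8.

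The heatmap of collagen genes by litter shows which litters held the highest and lowest values. Of the 25 genes, 16 had their highest value in sham litter 4, 7 in sham litter 3, 1 in sham litter 2 and 1 in IUGR litter 1. The lowest value lay in IUGR litter 4 for 8 genes, in IUGR litter 1 for 6, in IUGR litter 2 for 5, in sham litter 1 for 4, and in IUGR litter 3 and sham litter 2 for 1 each. Leaving out sham litter 4 brought the median difference to -0.16, and leaving out sham litter 3 brought it to -0.24. Leaving out sham litter 1 brought it to -0.36, and leaving out IUGR litter 4 brought it to -0.24. Leaving out the sham litters with the highest values must bring the difference nearer to 0, so these values cannot show an origin. With both sham litters 3 and 4 left out, an alternative chosen after the data were seen, the median was -0.09, against -0.002 over all genes. In that setting 20 of the 25 genes were still below 0.

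The chains of type I and type III collagen form the bulk fibres of connective tissue, and all 3 were below the sham mean without passing the adjusted threshold. Col1a1, the major type I chain, had values of 11.73, 11.90, 11.78 and 10.94 in IUGR litters 1 to 4, against 11.96, 12.00, 12.19 and 13.16 in sham litters 1 to 4. The groups did not overlap, with IUGR litter 4 the lowest and sham litter 4 the highest by a wide margin. The difference was -0.74 ± 0.31 (SE, n = 4 litters per group), or 1.67-fold lower, with a 95% confidence interval of -1.45 to -0.02 and an adjusted p of 0.181 from limma. Without sham litter 4 the difference was -0.46, and without sham litters 3 and 4 it was -0.39.

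Col1a2, which supplies the other chain of type I collagen, measured 11.19, 11.46, 11.45 and 10.49 in IUGR litters, against 11.54, 11.44, 11.63 and 12.35 in sham litters. IUGR litters 2 and 3 lay just above sham litter 2, so the groups overlapped, and the difference was -0.59 ± 0.27 (SE; adjusted p = 0.208, limma). Col3a1, the single chain of type III collagen, measured 10.84, 10.996, 10.76 and 10.02 in IUGR litters, against 11.01, 11.01, 11.18 and 11.91 in sham litters. Its groups did not overlap, although IUGR litter 2 lay just under sham litters 1 and 2, and the difference was -0.62 ± 0.27 (SE; adjusted p = 0.188, limma). Col1a2 differed by -0.39 without sham litter 4, by -0.37 without IUGR litter 4 and by -0.34 without sham litters 3 and 4. Col3a1 differed by -0.41 without either of the litters numbered 4 and by -0.36 without sham litters 3 and 4.

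Type V chains join type I in mixed fibrils and set their thickness. Col5a1 measured 8.97, 8.97, 8.90 and 8.70 in IUGR litters, against 8.84, 9.06, 9.16 and 9.95 in sham litters, a difference of -0.37 ± 0.22 (SE; adjusted p = 0.313, limma). Col5a2 measured 9.87, 9.86, 9.98 and 9.12 in IUGR litters, against 9.86, 9.76, 9.90 and 10.47 in sham litters, a difference of -0.29 ± 0.23 (SE; adjusted p = 0.429, limma). For both genes the litters numbered 1 to 3 of the groups lay close together or overlapped, and sham litter 4 stood above all others. Without sham litter 4 the difference was -0.14 for Col5a1 and -0.13 for Col5a2, and without IUGR litter 4 that of Col5a2 was -0.09. Col5a3, a less widespread chain, was nearly constant in IUGR litters at 7.41 to 7.44, and in sham litters it was 7.42, 7.60, 7.64 and 8.37. Its difference of -0.33 was -0.13 without sham litter 4. Col27a1, a fibrillar chain known from cartilage and developing tissues, differed by -0.29 ± 0.14 (SE), with 8.26 to 8.38 in IUGR litters and 8.30 to 8.98 in sham litters, and by -0.16 without sham litter 4.

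Col3a1 and Col5a2 are neighbours on chromosome 9 of the GRCr8 annotation. The promoter window of Col1a2 is shown. It matched both a TATA box and a CCAAT box, as did the windows of Col10a1 and Col17a1. No windows were used for Col1a1 and Col3a1. The Col1a2 window is the 250 bases upstream of the annotated start, taken from RefSeq (GRCr8, chr4:33518307-33518556, plus strand). Its matches to TATAAA and to CCAAT (here on the other strand) are in capitals.
Col1a2: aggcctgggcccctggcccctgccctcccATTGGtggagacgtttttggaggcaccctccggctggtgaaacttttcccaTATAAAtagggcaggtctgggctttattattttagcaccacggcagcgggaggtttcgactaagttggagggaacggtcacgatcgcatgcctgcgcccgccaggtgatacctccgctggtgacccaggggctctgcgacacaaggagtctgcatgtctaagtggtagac
A window was held by 20 of the 25 collagen genes. TATAAA, searched on both strands, occurred in 4 of the 20 (20%: Col1a2, Col10a1, Col13a1 and Col17a1), against 12.93% of all 33469 windows in the table. CCAAT occurred in 7 of the 20 (35.0%), against 34.02% of all windows. GGGCGG, the GC box, occurred in 11 of the 20 (55.0%), against 30.47% of all windows. The 33469 windows belong to 27457 genes, some with several windows, whereas each of the 20 collagen genes has 1. The shares are thus over unlike units, and no test was made between them. A match is a description of letters in the window and not evidence of a bound site.

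**Figure D2:**
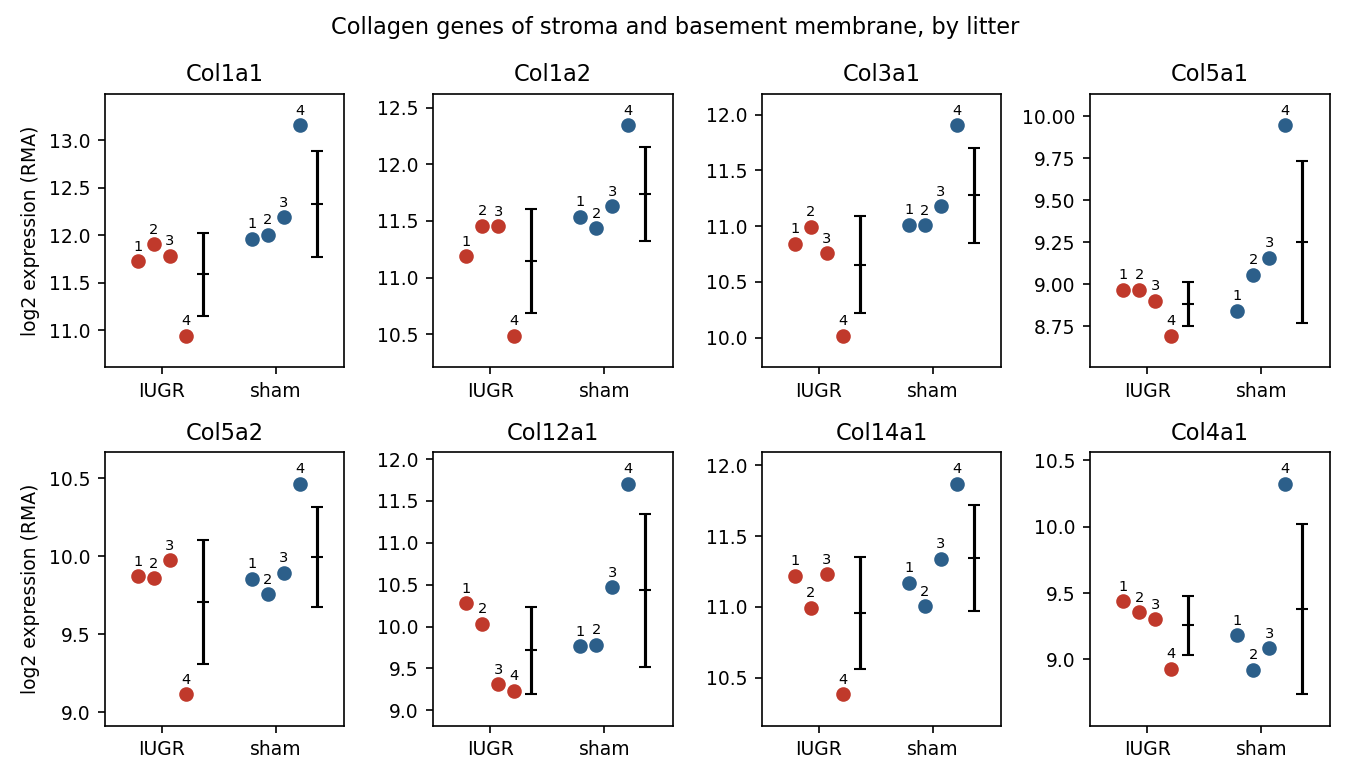
Points are log2 expression of 8 collagen genes in each litter, numbered within its group, IUGR left of sham, and the bar beside each group is its mean ± SD (n = 4 litters). Sham litter 4 is the highest litter in all 8 panels and IUGR litter 4 the lowest in 7 of the 8, the exception being Col4a1, where sham litter 2 is the lowest.

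FACIT chains do not form fibrils themselves but bind to the surface of fibrils. Col12a1, which coats type I fibrils in dense connective tissue, measured 10.28, 10.03, 9.31 and 9.23 in IUGR litters, against 9.77, 9.78, 10.47 and 11.71 in sham litters. The groups overlapped widely and sham litter 4 was the highest, and the difference of -0.72 ± 0.45 (SE; adjusted p = 0.332, limma) was -0.29 without sham litter 4 and -0.06 without sham litters 3 and 4. Col14a1, a relative of Col12a1 on the same fibrils, measured 11.22, 10.99, 11.23 and 10.38 in IUGR litters, against 11.17, 11.004, 11.34 and 11.87 in sham litters. IUGR litter 4 and sham litter 4 were the extremes there, the other litters lay close together, and the difference was -0.39 ± 0.24 (SE; adjusted p = 0.327, limma). It was -0.21 without sham litter 4 and -0.20 without IUGR litter 4. Col16a1 was 7.34 to 7.37 in IUGR litters and 7.37 to 7.84 in sham litters, a difference of -0.23 ± 0.11 (SE), or -0.14 without sham litter 4.

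The litter extremes of these stromal collagens were shared by other genes of the same tissue. All 18 of 18 measured mesenchyme markers other than collagens were below the sham mean, with a median difference of -0.54, 5 of them lower at an unadjusted p under 0.05 (10.7% of all genes) and 0 past the adjusted threshold. Their mean level was 11.004, 11.17, 10.96 and 10.11 in IUGR litters 1 to 4, against 11.36, 11.20, 11.29 and 11.56 in sham litters 1 to 4, so that no IUGR litter reached the sham range. The median of these 18 markers was -0.52 without sham litter 4 and -0.55 without sham litters 3 and 4. The 7 fibrillar collagens other than Col2a1, Col11a1 and Col11a2 had a median of -0.37 over all litters. It was -0.16 without sham litter 4 and -0.10 without sham litters 3 and 4. Prrx1, a transcription factor of limb and trunk mesenchyme, differed by -0.75 ± 0.21 (SE; adjusted p = 0.118), Thy1 by -0.79 ± 0.28 (SE; adjusted p = 0.146) and the matrix protein gene Postn by -0.79 ± 0.29 (SE; adjusted p = 0.15). The part of mesenchymal content in the collagen differences was not tested.

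The 3 measured chains of the basement membrane network were below the sham mean, and none passed the adjusted threshold. Col4a1, the partner of Col4a2 in the type IV network found in nearly all basement membranes, measured 9.44, 9.35, 9.30 and 8.93 in IUGR litters, against 9.18, 8.92, 9.08 and 10.33 in sham litters. IUGR litters 1 to 3 lay above sham litters 1 to 3, and sham litter 4 lay above every other litter. The difference was -0.12 ± 0.30 (SE; adjusted p = 0.810, limma), and it turned to 0.19 without sham litter 4 and to 0.20 without sham litters 3 and 4. The mean of the 14 endothelial markers was likewise highest in sham litter 4, and lowest in IUGR litter 4, at 11.01, 11.03, 11.08 and 10.45 in IUGR litters, against 11.23, 10.82, 10.94 and 11.53 in sham litters. All 14 of 14 endothelial markers were below the sham mean (median difference -0.18, and -0.10 without sham litter 4), 1 of them, Cd34, lower at an unadjusted p under 0.05 (10.7% of all genes). The part of endothelial content in the Col4a1 values was not tested.

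Col4a3 and Col4a4 encode chains of a specialised type IV network known from kidney glomeruli. Col4a3 measured 7.03, 7.05, 7.08 and 7.15 in IUGR litters, against 7.14, 7.35, 7.51 and 7.45 in sham litters. Only IUGR litter 4 reached above sham litter 1, and the difference of -0.28 ± 0.10 (SE; adjusted p = 0.142, limma) had the smallest p of the 25 genes. Col4a4 measured 6.74, 6.74, 6.76 and 6.92 in IUGR litters, against 6.79, 7.03, 7.08 and 7.03 in sham litters, a difference of -0.19 ± 0.09 (SE; adjusted p = 0.219, limma). Sham litters 2 to 4 were the 3 highest for both genes and sham litter 1 lay within the IUGR range. Sham litters 2 to 4 were also the arrays with the narrower signal range, and the part of that range in these differences was not tested. Among all genes of like signal the median difference was 0.05 for Col4a3 and -0.08 for Col4a4.

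The 2 genes lie head to head on chromosome 9 and are read away from each other, with 412 bases between their annotated starts. Their promoter windows therefore share 88 bases, and both are shown with that shared stretch in capitals (RefSeq, GRCr8, chr9:91323740-91323989 on the plus strand for Col4a3 and chr9:91323578-91323827 on the minus strand for Col4a4, each written in its gene's direction).
Col4a3: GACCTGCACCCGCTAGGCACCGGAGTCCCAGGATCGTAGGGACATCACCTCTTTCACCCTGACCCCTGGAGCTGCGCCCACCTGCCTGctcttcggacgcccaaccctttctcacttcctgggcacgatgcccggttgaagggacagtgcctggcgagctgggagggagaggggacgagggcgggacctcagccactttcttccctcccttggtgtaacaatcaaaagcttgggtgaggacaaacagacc
Col4a4: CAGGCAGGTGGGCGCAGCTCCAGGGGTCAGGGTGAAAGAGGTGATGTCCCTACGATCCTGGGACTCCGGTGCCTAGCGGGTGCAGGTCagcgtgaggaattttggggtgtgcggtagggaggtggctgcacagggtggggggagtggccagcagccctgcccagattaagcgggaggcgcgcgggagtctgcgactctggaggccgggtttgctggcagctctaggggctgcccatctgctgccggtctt
The shared stretch reads in opposite directions in the 2 windows, since the genes lie on opposite strands.

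The fibrillar and basement membrane classes were also set side by side by litter. With each gene set to 0 at its mean over the 8 litters, the 10 fibrillar genes averaged -0.20, -0.14, -0.13 and -0.47 in IUGR litters 1 to 4, against -0.10, 0.00, 0.42 and 0.62 in sham litters 1 to 4. On the same scale the 3 basement membrane genes averaged -0.07, -0.09, -0.09 and -0.14 in IUGR litters, against -0.10, -0.04, 0.08 and 0.46 in sham litters. The fibrillar mean minus the basement membrane mean was -0.12, -0.05, -0.04 and -0.33 in IUGR litters, against 0.00, 0.04, 0.33 and 0.16 in sham litters, so that no IUGR litter reached a sham litter. The 0.42 of sham litter 3 includes the cartilage chains Col2a1, Col11a1 and Col11a2, which are described below. Without these 3, the other 7 fibrillar genes averaged -0.15, -0.07, -0.09 and -0.61 in IUGR litters, against -0.06, 0.01, 0.14 and 0.83 in sham litters. The median difference was -0.47 for the fibrillar class and -0.19 for the basement membrane class. It was -0.39 for the FACIT class, -0.16 for the short chains, -0.13 for the anchoring fibril chain, -0.09 for the transmembrane chains and 0.34 for the beaded filament chain. Without sham litters 3 and 4 the fibrillar and basement membrane medians were both -0.12. The fibrillar mean minus the basement membrane mean differed between the groups by -0.27, and by -0.15 without sham litters 3 and 4. Since the classes were chosen with results known, no test was made between them.

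**Figure D3:**
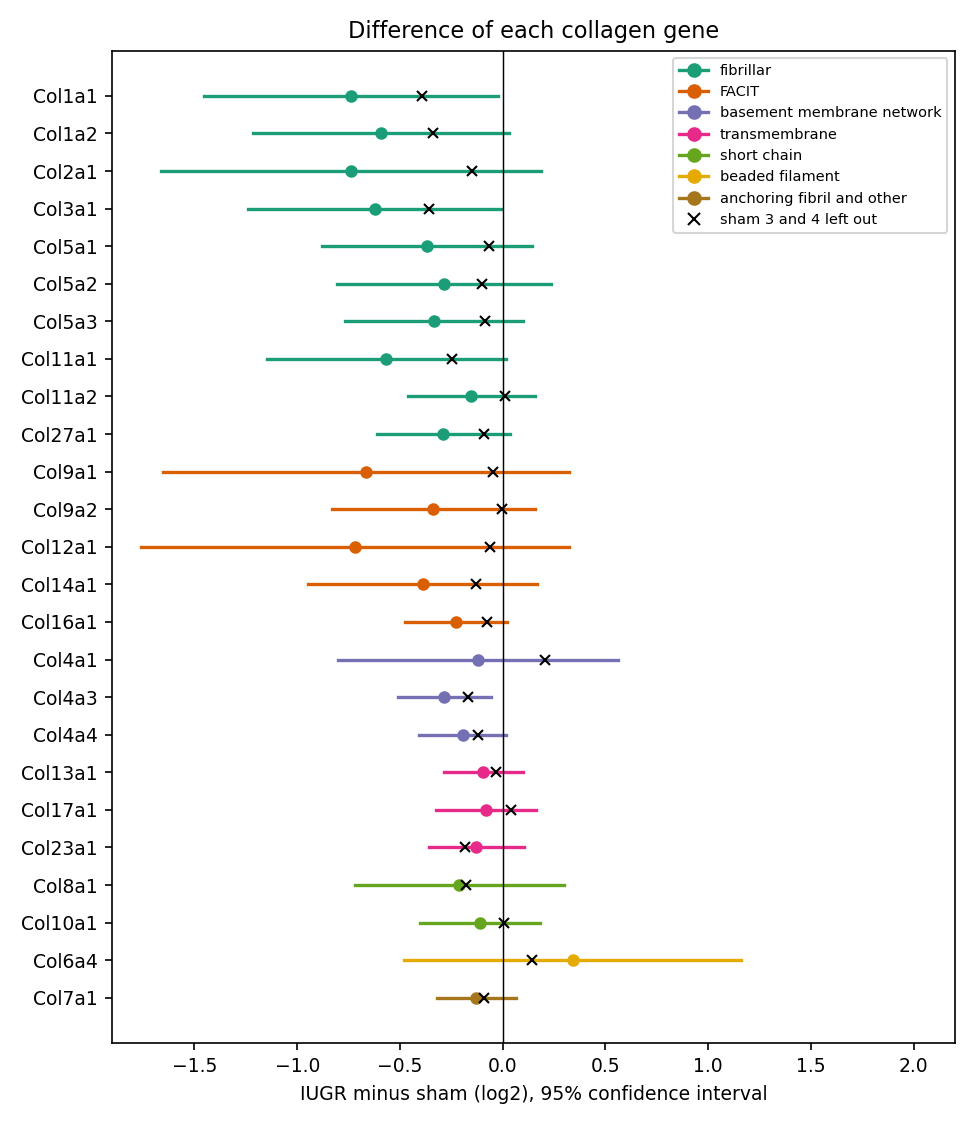
Each point is the IUGR minus sham difference (log2) of a collagen gene with its 95% confidence interval from limma, coloured by class, and the cross is the difference with sham litters 3 and 4 left out. All points but Col6a4 lie below 0, and most crosses lie nearer to 0 than the points, with Col4a1 at 0.20.

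A separate pattern set sham litter 3 apart in the collagens of cartilage. Col2a1, the chain of type II collagen and the main fibre of cartilage, measured 7.97, 7.96, 8.07 and 8.20 in IUGR litters, against 8.09, 8.30, 10.14 and 8.62 in sham litters. Sham litter 3 exceeded the next litter by 1.52, or 2.87-fold, and the other litters lay between 7.96 and 8.62. Col9a1, a type IX chain, measured 7.28, 7.32, 7.39 and 7.43 in IUGR litters, against 7.24, 7.56, 9.47 and 7.81 in sham litters, with sham litter 3 above the next litter by 1.66, or 3.16-fold. Col11a1, the type XI chain that starts thin cartilage fibrils, measured 8.05, 8.17, 8.17 and 8.15 in IUGR litters, against 8.37, 8.40, 9.55 and 8.48 in sham litters, with sham litter 3 above the next by 1.07, or 2.11-fold.

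The size of the differences between groups for these genes rested on that litter in large part. Col2a1 differed by -0.74 ± 0.40 (SE; adjusted p = 0.272, limma) over all litters and by -0.29 without sham litter 3. Col9a1 differed by -0.67 ± 0.43 (SE; adjusted p = 0.342, limma), and by -0.18 without sham litter 3. Col11a1 differed by -0.57 ± 0.25 (SE; adjusted p = 0.201, limma), and by -0.28 without sham litter 3, where the IUGR litters still lay below the remaining sham litters. Without sham litter 3 the unadjusted limma p went from 0.0555 to 0.013 for Col11a1 (adjusted p = 0.238) and from 0.104 to 0.083 for Col2a1. For Col9a1 it went from 0.160 to 0.240. The partner chains moved less, since Col9a2 in sham litter 3 exceeded the next litter by 0.45 and Col11a2 by 0.19. Col10a1, the marker of the enlarged chondrocytes of growth cartilage, was 6.90 in sham litter 3 and highest in sham litter 4 at 7.05. The median difference of these 6 cartilage collagens, grouped after their values were seen, was -0.45, and it was -0.17 without sham litter 3.

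Genes of cartilage that are not collagens had the same litter at the top. Their mean over 9 genes was 7.24, 7.25, 7.30 and 7.51 in IUGR litters, against 7.27, 7.27, 9.53 and 7.31 in sham litters. Ucma, a secreted protein of cartilage matrix, was 11.56 in sham litter 3 and at most 7.52 in any other litter. Cnmd, which encodes chondromodulin, was 11.29 in sham litter 3 and at most 7.23 elsewhere, and the link protein gene Hapln1 was 11.21 and at most 7.90. Acan, the core protein of aggrecan, was 9.72 in sham litter 3 and at most 7.59 elsewhere. Matn3, a matrilin, was 10.26 in sham litter 3, and its next highest value was 8.61 in IUGR litter 4. Comp and Matn1, matrix proteins of cartilage, were also highest in sham litter 3, at 7.92 and 7.87. Sox5 and Sox6, transcription factors of chondrocytes that other cells also use, were not raised there, at 7.10 and 8.80. Sox5 was higher in IUGR litters, at 7.14 to 7.63 against 6.90 to 7.10 in sham litters. Its difference was 0.29 ± 0.12 (SE; adjusted p = 0.181, limma). Every IUGR litter lay above every sham litter for Sox5, which held for 10% of all genes. The part of cartilage in the collagen values of sham litter 3 was not tested, and the labels do not mention such tissue.

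**Figure D4:**
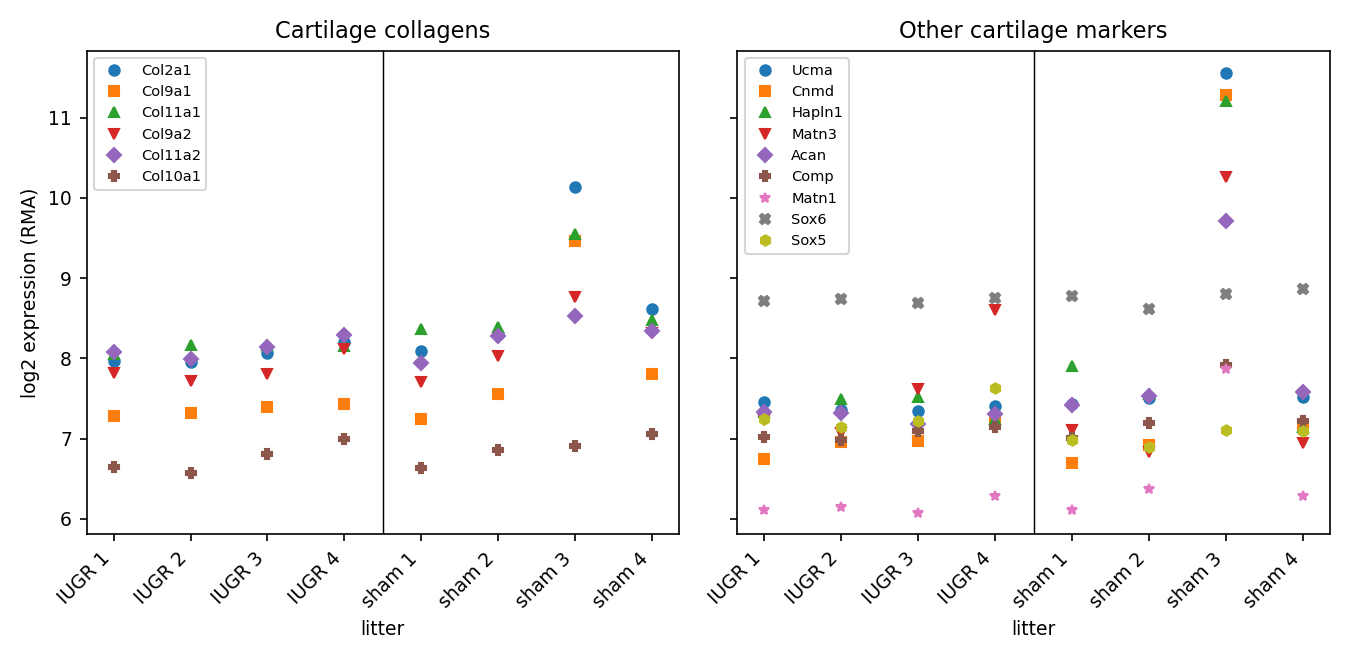
Log2 expression by litter, IUGR left of sham, of 6 cartilage collagens (left panel) and 9 other cartilage markers (right panel). Sham litter 3 carries the isolated high points, among them Col2a1 at 10.14 and Ucma at 11.56, while Col10a1, Sox5 and Sox6 are not high there.

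Col11a1 was the only one of the 6 cartilage collagens whose groups did not overlap, and its promoter window is shown for that reason (RefSeq, GRCr8, chr2:204508886-204509135, plus strand). Capitals mark CCAAT matches, here on the other strand, and GGGCGG matches.
Col11a1: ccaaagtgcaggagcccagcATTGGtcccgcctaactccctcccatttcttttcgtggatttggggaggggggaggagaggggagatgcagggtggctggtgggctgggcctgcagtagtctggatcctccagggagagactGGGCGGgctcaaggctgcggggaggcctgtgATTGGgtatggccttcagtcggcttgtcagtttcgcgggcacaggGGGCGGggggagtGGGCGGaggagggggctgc
It has no TATAAA match, in contrast to the window of Col1a2, and no GC box match occurs in the window of Col1a2. These letters say nothing about which factors act on either gene.

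Of the remaining collagens, Col6a4, whose probe set was the brightest of 3 for the gene, measured 8.59, 7.66, 7.95 and 6.70 in IUGR litters, against 7.49, 7.68, 7.23 and 7.14 in sham litters. The IUGR litters spanned the whole sham range on both sides, and the difference was 0.34 ± 0.36 (SE; adjusted p = 0.550, limma), 0.68 without IUGR litter 4 and 0.05 without IUGR litter 1. With the mean of its 3 probe sets it was 0.12. Of the transmembrane chains, Col17a1, a component of epithelial hemidesmosomes, differed by -0.08 ± 0.11 (SE), Col13a1 by -0.09 ± 0.08 (SE) and Col23a1 by -0.13 ± 0.10 (SE). Col7a1, the anchoring fibril chain under stratified epithelia, differed by -0.13 ± 0.08 (SE), and Col8a1, a short chain of vessels and stroma, by -0.21 ± 0.22 (SE), or by -0.06 without sham litter 4.

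The difference between groups also varied with the signal of a gene on the array, beside the narrower signal range of sham litters 2 to 4. Split into 10 groups by mean signal, all genes had a median difference of -0.17, -0.16 and -0.08 in the 3 dimmest groups and of 0.05 to 0.22 in the other 7. Of the collagen genes, 11 had a mean below 8 and 17 lay below the median of all genes, 8.70. Of the 25 collagen genes, 24 lay below the median of all genes in their own signal group, by a median of -0.38 over the 25. After quantile normalization, which gives all arrays the same distribution, the median collagen difference was -0.45, and 10 genes were lower at an unadjusted p under 0.05, where 12.3% of all genes were, with 0 past the adjusted threshold.

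**Figure D5:**
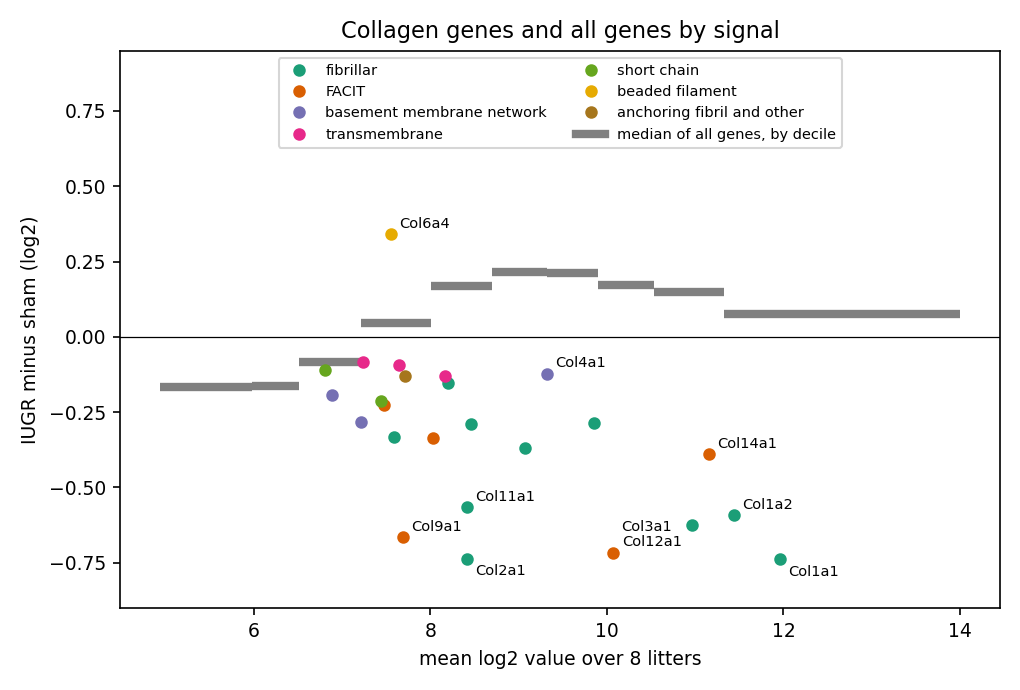
Each point is a collagen gene placed by its mean log2 value over the 8 litters and its IUGR minus sham difference (log2), and the grey bars give the median difference of all genes in each of 10 groups by signal. The grey bars run from -0.17 at low signal to 0.22 at middle signal, and every collagen gene but Col6a4 lies below its bar.

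Weighting the arrays by their fit changed the calls. With array weights, 11 collagen genes passed the adjusted threshold, where 43.8% of all genes did, and sham litter 3, the litter with the cartilage signal, had the largest weight at 7.82. Without sham litter 1, Col4a3 passed with a difference of -0.36, where 18.9% of all genes passed. The 11 of 25 is close to the share of all genes, and the 1 of 25 is below it.

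The enzymes that build collagen before it leaves the cell were mixed. Among the prolyl and lysyl modifying genes, 8 of 14 measured were below the sham mean (44.9% of all genes were). Their median difference was -0.18 over all litters and also -0.18 without sham litter 4. At an unadjusted p under 0.05 (limma), 2 were lower (10.7% of all genes) and 1 was higher (15.4%). These shares of all genes apply to the counts of every list that follows. Every IUGR litter lay below every sham litter in 5.45% of all genes, a share that applies to each gene so described below. P3h3, a prolyl hydroxylase family member, differed by -0.53 ± 0.19 (SE; adjusted p = 0.148), and Crtap, a component of the prolyl 3-hydroxylation complex, by -0.26 ± 0.11 (SE; adjusted p = 0.172). P4hb, the disulfide isomerase that is also the beta subunit of prolyl 4-hydroxylase, differed the other way by 0.26 ± 0.10 (SE; adjusted p = 0.155), and Plod3, a lysyl hydroxylase, by 0.38 ± 0.17 (SE; adjusted p = 0.200).

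Of the genes of folding and export, 7 of 9 were below the sham mean (median difference -0.31, and -0.29 without sham litter 4). At an unadjusted p under 0.05 (limma), 2 were lower and 1 was higher. Serpinh1, the collagen chaperone HSP47, measured 12.58, 12.87, 12.61 and 12.48 in IUGR litters, against 12.85, 12.92, 13.00 and 12.92 in sham litters, a difference of -0.29 ± 0.10 (SE; adjusted p = 0.141, limma). IUGR litter 2 reached into the sham range, and sham litters lay close together. Sparc, a collagen-binding matrix protein, differed by -0.33 ± 0.11 (SE; adjusted p = 0.136) with no overlap between groups. Tmem38b, an ion channel of the endoplasmic reticulum needed for collagen processing, differed the other way by 0.85 ± 0.22 (SE; adjusted p = 0.113).

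Outside the cell, 8 of 11 genes of propeptide cleavage and cross-linking were below the sham mean (median difference -0.30, and -0.17 without sham litter 4), with 2 lower and 0 higher at an unadjusted p under 0.05. Loxl1, a lysyl oxidase that cross-links matrix, measured 10.12, 10.86, 10.63 and 9.91 in IUGR litters, against 11.18, 11.02, 11.06 and 11.38 in sham litters, a difference of -0.78 ± 0.21 (SE; adjusted p = 0.117, limma). Pcolce, which speeds the removal of procollagen C-propeptides, measured 10.49, 10.68, 10.69 and 10.24 in IUGR litters, against 10.93, 10.83, 11.04 and 11.20 in sham litters, a difference of -0.47 ± 0.13 (SE; adjusted p = 0.119, limma). In both genes every IUGR litter lay below every sham litter, and IUGR litter 4 was the lowest.

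Of 14 genes of collagen degradation and its inhibitors, 13 were below the sham mean, where 44.9% of all genes were. Their median difference was -0.47, and it was -0.48 without sham litter 4. At an unadjusted p under 0.05 (limma), 4 were lower (10.7% of all genes) and 1 was higher (15.4%), with 0 past the adjusted threshold. Ctsk, the collagen-cleaving cathepsin K, differed by -1.04 ± 0.27 (SE; adjusted p = 0.110), Mmp9, a gelatinase, by -1.07 ± 0.38 (SE; adjusted p = 0.146) and Mmp14, a membrane-bound collagenase, by -0.45 ± 0.16 (SE; adjusted p = 0.142). Mmp15 differed the other way by 0.37 ± 0.13 (SE; adjusted p = 0.147). Macrophages make some of these enzymes, and all 11 of 11 macrophage markers were below the sham mean, with a median difference of -0.55 and mean levels of 9.43, 10.37, 10.31 and 9.63 in IUGR litters, against 10.94, 10.35, 10.41 and 10.30 in sham litters. The part of macrophage content in these values was not tested.

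Receptors of collagen differed in both directions. Of 8 collagen receptor genes, 6 were below the sham mean (median difference -0.27, and -0.11 without sham litter 4), with 2 lower (10.7% of all genes) and 1 higher (15.4%) at an unadjusted p under 0.05. Lair1, an inhibitory receptor of immune cells that binds collagen, measured 6.10, 5.98, 5.99 and 5.99 in IUGR litters, against 6.27, 6.88, 6.59 and 6.88 in sham litters, a difference of -0.64 ± 0.14 (SE; adjusted p = 0.086, limma). Every IUGR litter lay below every sham litter for Lair1. Ddr2, the discoidin receptor of mesenchymal cells, differed by -0.63 ± 0.28 (SE; adjusted p = 0.196), and its epithelial relative Ddr1 by 0.30 ± 0.12 (SE; adjusted p = 0.158). Itga10, an integrin chain of chondrocytes, differed by -0.40 ± 0.11 (SE; adjusted p = 0.121). Lair1 and Itga10 are dim genes, and sham litter 1 was the lowest sham litter for both. In the signal group of Lair1 the median difference of all genes was -0.16, and 33.5% were lower at an unadjusted p under 0.05 (limma). In that of Itga10 these values were -0.08 and 15.6%. The part of dim signal in these differences was not tested.

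Proteoglycans and glycoproteins that bind fibrils were the list with the lowest median of the 7 collagen pathway lists, at -0.64 (-0.53 without sham litter 4). Of this list, 8 of 9 were below the sham mean, with 2 lower and 0 higher at an unadjusted p under 0.05 (limma). Dcn, which encodes decorin, measured 13.03, 12.94, 12.48 and 11.81 in IUGR litters, against 13.10, 13.13, 13.13 and 13.44 in sham litters, a difference of -0.64 ± 0.26 (SE; adjusted p = 0.169, limma). Its groups did not overlap, and IUGR litter 4 was the lowest. Dcn and Lum stand in the mesenchyme list too. Aspn, which encodes asporin, differed by -0.95 ± 0.41 (SE; adjusted p = 0.188), Prelp by -0.84 ± 0.41 (SE; adjusted p = 0.234) and biglycan, Bgn, by -0.45 ± 0.21 (SE; adjusted p = 0.213). The laminins, nidogens and other partners of type IV collagen in basement membranes had 4 of 9 below the sham mean, a median difference of 0.04 (0.26 without sham litter 4 and 0.29 without sham litters 3 and 4), and 0 in either direction at an unadjusted p under 0.05. Lama5 differed by 0.59 ± 0.40 (SE) and Nid2 by -0.25 ± 0.23 (SE). Both had their highest value in sham litter 4, as for Col4a1. Lamb3 differed by 0.27 ± 0.19 (SE) and was highest in IUGR litter 1. Lama1 differed by 0.38 ± 0.29 (SE) and was highest in IUGR litter 4. None of the genes of these 7 lists passed the adjusted threshold.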

How the data were processed

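Islet RNA of 4 IUGR and 4 sham litters was measured on 8 one-colour Affymetrix arrays. Per the submitters' processing notes, the authors used RMA to make the deposited log2 values, and no source used here gives its version or its filters. The table held 29214 probe sets. The platform annotation gave 1 gene for 15310 of them, several for 323 and none for 13581. Of the 15310, 15279 matched a RefSeq gene of GRCr8, and 31 kept the annotation's name. For 527 genes with several probe sets the brightest by mean was kept, which left 14506 genes. Precision is set by the number of arrays, as there is no read depth.

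Groups were compared by limma's moderated two-sided test (limma 3.58.1, R 4.3.3, no covariate, 8.21 total degrees of freedom) on the log2 values, with p-values adjusted over all genes and a threshold of 0.05. The fit was checked on simulated data. Alternatives were quantile, cyclic loess and median-centring normalization, array weights, a replicate block, a trended robust prior, dropping the 30% of genes with the dimmest signal, other ways to pick probe sets, and leaving out each litter. Leaving out sham litters 3 and 4 together was chosen after the data were seen.

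Collagen genes, classes, pathway lists and marker lists were chosen with earlier results of these data known, so no test was run over a list. Values in every litter were given for a fixed set of fibrillar, type IV and type VI, XV and XVIII genes where measured, for collagens at an unadjusted p under 0.05 and for the 5 with the largest difference in each direction. Up to 4 genes of a pathway list and 3 of a marker list were named by smallest p, and other collagen and cartilage genes were named after their values were seen. Promoter windows came from RefSeq (GRCr8); no source used here gives the build behind the array annotation. Figures were drawn with matplotlib 3.10.9.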

Additional observations from a re-analysis of the deposited data

Results flagged for a closer look

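Within each group of 4 litters, the gap of the extreme value to its neighbour over the group's range (Dixon's ratio) was set against the 95% critical value for 4 values. Of 66 groups of values tested, 6 passed, where chance passes about 1 in 20. Sham litter 3 passed for Col11a1 at 9.555 (ratio 0.907, next sham litter 8.48) and for the mean of the non-collagen cartilage markers at 9.526 (ratio 0.981, next sham litter 7.31). IUGR litter 4 passed for Col5a2 at 9.118 (ratio 0.868), for the mean of the endothelial markers at 10.447 (ratio 0.893) and, on the high side, for Col4a4 at 6.917 (ratio 0.857). IUGR litter 1 passed for Col11a1 at 8.053 (ratio 0.833), where the 4 IUGR litters spanned only 8.05 to 8.17. Sham litter 4, the highest litter for 16 of 25 collagen genes, passed for 0 of them.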

How the results depend on the processing

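The count of all genes past the adjusted threshold, 36, was 0 with quantile normalization, 0 with cyclic loess, 1 with median centring, 59 without the 30% dimmest genes, 6358 with array weights, 0 with the replicate block, 3 with all probe sets together, 1 with sham litters 3 and 4 left out, and 0 to 2738 when each litter was left out in turn. The count of collagen genes past it, 0, was 11 with array weights, where 43.8% of all genes passed, and 0 to 1 with each litter left out. The 1 was Col4a3 without sham litter 1, where 18.9% of all genes passed. The count of collagen genes at an unadjusted p under 0.05 (limma), 3, was 10 with quantile normalization, 7 with cyclic loess and 15 with median centring. It was 16 with array weights (15 lower and 1 higher), 1 with the replicate block and 1 with sham litters 3 and 4 left out. With each litter left out it was 0 to 10, 0 without IUGR litter 1 and 10 without sham litter 1. With quantile normalization 12.3% of all genes were lower at that p. No share of all genes stands beside the other counts, so they cannot be read as particular to collagens. Median centring moved the median of all genes to -0.19 and that of the collagens to -0.52. The count of collagen genes with no overlap, 3, was 9 with quantile normalization, 6 with cyclic loess and 3 to 12 with each litter left out, 7 without IUGR litter 4 and 12 without sham litter 1. These counts too lack a share of all genes in the same setting, and they cannot be read as particular to collagens. The median of the transmembrane class, -0.09, was -0.205 with quantile normalization and -0.325 with median centring; the cause was not tested.

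Of 448 values of single collagen genes over 18 alternatives, 429 kept their direction and side of the threshold, 12 passed it newly and 7, in 5 genes, reversed. Col4a1 was 0.213 with array weights, -0.274 to 0.194 with each litter left out, positive only without sham litter 4, and 0.204 without sham litters 3 and 4; Col8a1 was 0.15 with array weights; and Col10a1 was 0.007, Col11a2 0.012 and Col17a1 0.039 without sham litters 3 and 4. Deviations from the group mean in IUGR and sham litters of the same number correlated at -0.435, 0.095, -0.124 and -0.128 across genes. The -0.435 was the largest in size of any pair of an IUGR and a sham litter. The replicate block rests on the numbers alone, since the labels do not pair the litters. These correlations cannot show whether litters of the same number share a batch.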
